A study of Mus musculus with 27 samples.

Results

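The 9 genes described here control whether bone matrix mineralizes or how cells handle phosphate, and they were taken by symbol: Alpl, Phospho1, Enpp1, Phex, Slc20a1, Slc20a2, Fam20c, Smpd3 and Sost, 9 of 30153 genes listed for this series. Their mRNA was measured by bulk RNA-seq in 27 libraries of Prx1-tdTomato cells sorted from bone marrow, periosteum and skeletal muscle of mouse hindlimbs. In each tissue the CD45- cells that carry the reporter were sorted into 3 gates, which gave 9 groups of 3 replicates: P1 lacked CD105 and carried CD200, P2 lacked both markers, and P3 carried CD105 with CD200 present or not. All groups came from Prx1-CreER/Ai14/Rag1 mice given tamoxifen, young adults of both sexes at homeostasis, so every library shares the Rag1 mutation and the reporter. The reporter is switched on by CreER under the Prx1 promoter and stays on in the progeny, so that a labelled cell need not express Prrx1 when it is sorted. The deposited design places the samples within the same animals without saying which animal gave which library. The p-values therefore rest on the spread between libraries, treated as independent, with 1 spread per gene shared by all 9 groups. Replicates were less alike in periosteum P2 (pairwise r 0.631 to 0.672) than in muscle P3 (0.947 to 0.955). The shared spread therefore need not match that of the groups compared.

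Mineral forms when phosphate is freed close to collagen and the inhibitor pyrophosphate is removed. In textbook accounts Alpl, tissue-nonspecific alkaline phosphatase, splits pyrophosphate on the outer membrane of osteoblasts and their matrix vesicles, and Enpp1 makes pyrophosphate. Smpd3 acts on a phospholipid to supply phosphocholine, and Phospho1 frees phosphate from phosphocholine. Slc20a1 and Slc20a2 are the sodium-phosphate cotransporters PiT-1 and PiT-2, Phex is a peptidase of osteoblasts and osteocytes whose loss raises Fgf23, Fam20c is the kinase that phosphorylates secreted matrix proteins, and Sost encodes sclerostin, the Wnt antagonist of mature osteocytes.

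The libraries summed to between 8631881 and 26230908 normalized counts, and 12396 to 21675 genes had a value above 0. Summed osteoblast markers (6 genes, Bglap, Bglap2, Col1a1, Ibsp, Sp7 and Runx2) made up 17.93% to 23.09% of a bone marrow P1 library and 5.246% to 10.37% of a periosteum P1 library, against 0.7028% to 1.19% in muscle P1. Erythroid markers (6 genes, none at 0 in every library of a group) reached 44.85% to 48.06% in bone marrow P2 and 24.39% to 39.14% in periosteum P2, and 5 myofibril markers 8.655% to 9.337% in muscle P2. Prrx1 averaged 110.1 ± 53.3 (SD, n = 3) in bone marrow P2, the lowest of the 9 groups. In these bulk libraries fewer cells of a type and less RNA per cell cannot be told apart, and the part of such admixed cells in the results below was not tested.

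The upstream sequences of 4 members are shown because Alpl, Phospho1 and Phex were high in P1 of both bone tissues while Slc20a1 had its lowest mean in bone marrow P1. They are RefSeq sequences on GRCm38.p6, 220 bases each, from 250 to 31 bases before the start, read 5′ to 3′ on the strand of the gene. Promoters were found for 7 of the 9 members, with Smpd3 and Slc20a2 named only. For Alpl and Slc20a1, which have a second start in the table, the more upstream start is shown. Capitals mark matches on either strand to the RUNX core TGTGGT, to the Sp1-type motif GGGCGG known as the GC box, or to the TATA box TATAAA.
Alpl (chr4:137796415-137796634, minus strand): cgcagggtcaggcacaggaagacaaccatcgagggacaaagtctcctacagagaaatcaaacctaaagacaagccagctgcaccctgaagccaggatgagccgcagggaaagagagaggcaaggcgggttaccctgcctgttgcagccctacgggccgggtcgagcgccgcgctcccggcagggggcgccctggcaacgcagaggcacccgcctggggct
Phospho1 (chr11:95824250-95824469, plus strand): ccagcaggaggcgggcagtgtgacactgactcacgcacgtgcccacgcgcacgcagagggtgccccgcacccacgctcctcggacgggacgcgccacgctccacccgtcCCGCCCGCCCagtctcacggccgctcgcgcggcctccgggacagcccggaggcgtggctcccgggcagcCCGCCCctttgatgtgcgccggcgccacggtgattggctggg
Phex (chrX:157415317-157415536, minus strand): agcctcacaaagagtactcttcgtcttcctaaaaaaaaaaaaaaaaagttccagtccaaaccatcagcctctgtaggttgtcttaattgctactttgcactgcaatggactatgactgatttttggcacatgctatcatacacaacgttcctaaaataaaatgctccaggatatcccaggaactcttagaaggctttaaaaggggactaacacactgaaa
Slc20a1 (chr2:129198523-129198742, plus strand): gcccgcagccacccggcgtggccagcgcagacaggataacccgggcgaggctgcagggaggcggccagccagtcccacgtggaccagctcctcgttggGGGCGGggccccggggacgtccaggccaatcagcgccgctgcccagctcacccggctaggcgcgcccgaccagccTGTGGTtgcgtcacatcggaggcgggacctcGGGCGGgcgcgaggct

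The Phospho1 window held 3 GC boxes, of which 2 overlap, and the Slc20a1 window held 2 GC boxes and 1 RUNX core that starts 77 bases before the gene's start. The Alpl and Phex windows shown held no match. The window of the second Alpl start held 1 match to TATAAA, on the opposite strand 192 bases before that start. The windows end 31 bases before the start, so a TATA box closer to it could not be found or excluded. Over all 32851 promoters of the table the same window contained the RUNX core in 12.7%, the GC box in 28.5% and the TATA box in 9.95%, so each motif is common and a match is a description only.

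**Figure D1:**
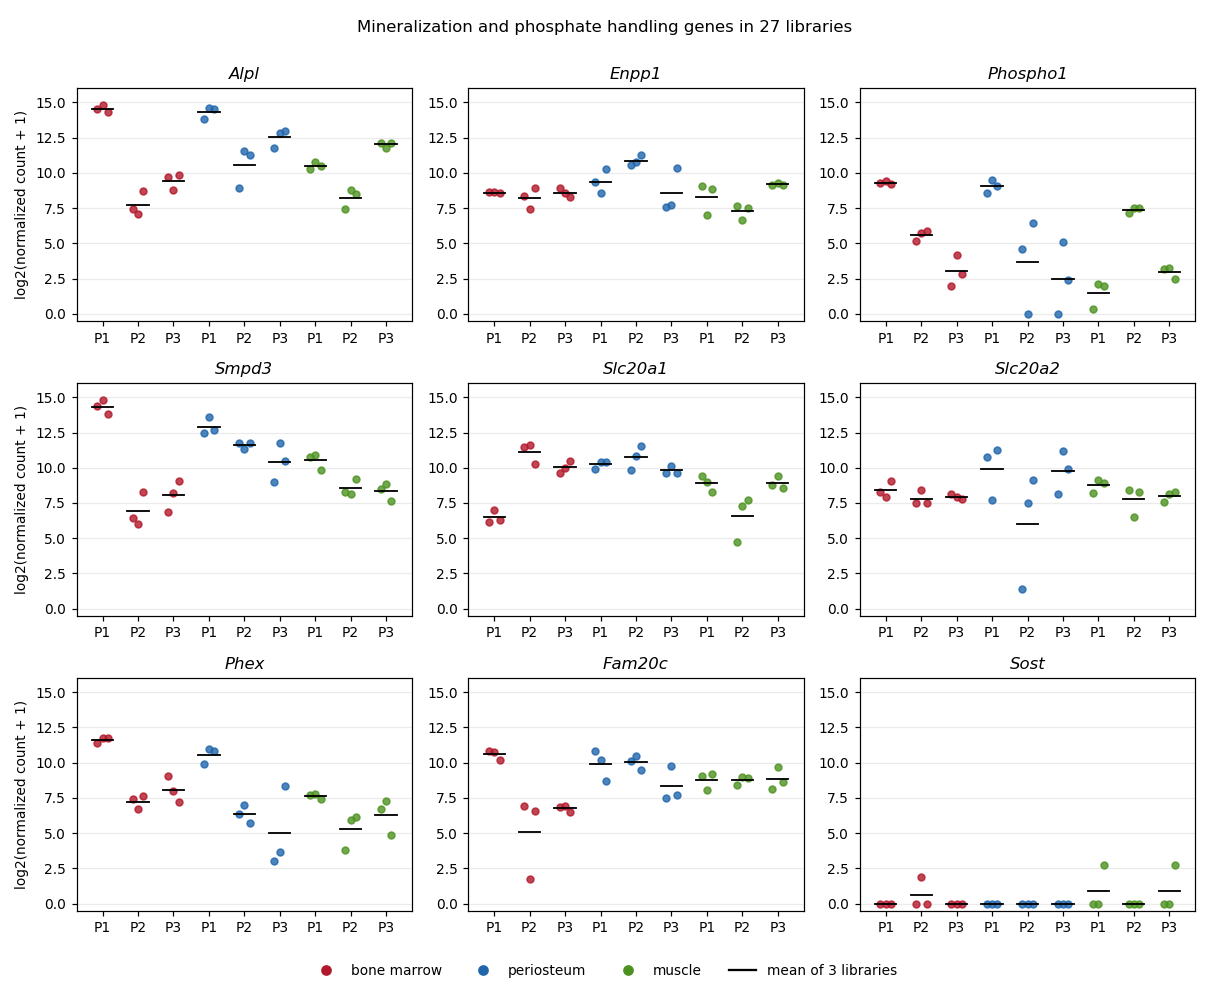
Level of each of the 9 genes in 27 libraries, on the y axis as log2(normalized count + 1), with points for libraries, bars for means of 3 libraries and colours for tissues. Alpl, Phospho1, Phex and Smpd3 had their highest means in P1 of bone marrow and then periosteum, Slc20a1 had its lowest mean in bone marrow P1, and Sost was listed at 0 in 24 of the 27 libraries.

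Alpl (chr4:137741733-137796384, minus strand, here and below in GENCODE M21 on GRCm38) was highest in P1 of both bone tissues. In bone marrow P1 its normalized counts were 23891, 28847 and 20274, and in periosteum P1 they were 14501, 25285 and 23237. Bone marrow P2 held 171, 134 and 410, and bone marrow P3 held 828, 447 and 934. The P1 libraries of both bone tissues overlapped each other and lay above every other library. Periosteum P3 (3531, 7136 and 8152) and muscle P3 (4531, 3550 and 4537) came next and overlapped, followed by periosteum P2 (497, 3053 and 2449) and muscle P1 (1224, 1729 and 1462), which overlapped too. Muscle P2 (171, 444 and 367) and bone marrow P2 were lowest and did not separate. Within muscle, P3 had the highest Alpl mean, 2.86-fold that of P1. In the limma test given below, muscle P1 against P3 did not pass for Alpl (log2 fold change -1.52, adjusted p 0.365).

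Enpp1 (chr10:24637914-24712159, minus strand), the enzyme that opposes Alpl by making pyrophosphate, did not share this order. Its libraries held 392, 401 and 376 in bone marrow P1, 321, 177 and 483 in bone marrow P2, and 491, 372 and 315 in bone marrow P3. These 9 libraries overlapped. The highest group was periosteum P2 with 1523, 1717 and 2448, above all libraries of the other groups. Periosteum P1 (642, 384 and 1212) and periosteum P3 (194, 212 and 1336) spread widely because of 1 high library each, replicate 3. Muscle groups ranged from 101 in P2 to 633 in P3. In periosteum P2, 5 chondrocyte markers summed to 1.708% to 3.341% of a library, against 0.4812% to 2.868% in periosteum P1 and 0.1354% to 0.8857% in periosteum P3.

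Alpl and Enpp1 were set against each other within a library, per kilobase of exon sequence. The steps of the normalized counts differ between genes. Ratios of 2 genes, here and below, may therefore keep a factor of the genes themselves, and their absolute size is uncertain. Alpl over Enpp1 was 137.3 to 182.9 in bone marrow P1 and 48.75 to 167.3 in periosteum P1. The same ratio was 1.359 to 2.162 in bone marrow P2, 3.058 to 7.534 in bone marrow P3 and 0.83 to 4.521 in periosteum P2. Periosteum P3 kept a ratio of 15.51 to 85.55, which overlapped periosteum P1. In muscle the ratio was 5.724 to 33.45 in P1, 2.159 to 11.15 in P2 and 14.26 to 20.9 in P3. The range of muscle P1 overlapped both others, and all P3 libraries lay above all P2 libraries. The highest ratios were those of P1 in the bone tissues. As computed, 26 of the 27 libraries lay above 1, the exception being periosteum P2 replicate 1, but the place of 1 depends on that factor.

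**Figure D2:**
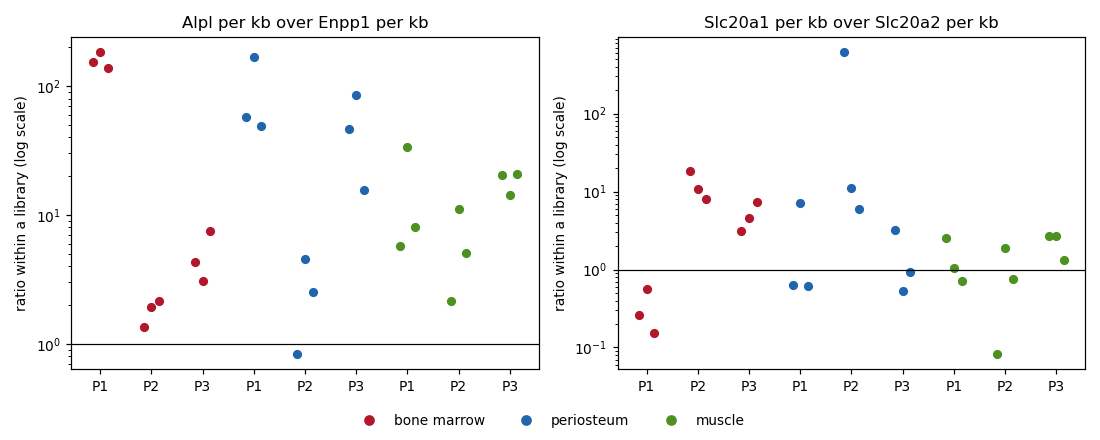
Ratio within each library of Alpl to Enpp1 and of Slc20a1 to Slc20a2, each per kilobase of exon, on a log y axis, with 1 point per library, 3 per group, and a line at 1. Alpl over Enpp1 was highest in bone marrow P1 (137.3 to 182.9), while Slc20a1 over Slc20a2 was below 1 in all 3 bone marrow P1 libraries (0.1556 to 0.5703). The absolute size of such ratios, and so the line at 1, is uncertain because the steps of the normalized counts differ between genes.

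Phospho1 (chr11:95824499-95832140, plus strand), a phosphatase for phosphocholine and phosphoethanolamine in matrix vesicles, was highest in P1 of both bone tissues and in muscle P2. Bone marrow P1 libraries held 617, 677 and 606 and periosteum P1 libraries 390, 711 and 542. Muscle P2 followed with 143, 186 and 178, which overlapped no other group. The remaining groups held 0 to 87.5, and muscle P1 held 0.284, 3.35 and 2.95. In muscle P2, where Phospho1 stood apart, myofibril markers made up 8.655% to 9.337% of the library, against 0.1881% to 0.3198% in muscle P1 and 0.01059% to 0.0235% in muscle P3. The part of myofibres in that value was not tested.

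Smpd3 (chr8:106252548-106337988, minus strand), a neutral sphingomyelinase, reached the level of Alpl in bone marrow P1, with 21448, 28668 and 14075 per library. Periosteum P1 held 5552, 12320 and 6698, all below bone marrow P1. Periosteum P2 (3534, 2542 and 3458) and periosteum P3 (517, 3463 and 1433) overlapped each other, and muscle P1 held 1738, 1962 and 921. The other groups, bone marrow P2 and P3 and muscle P2 and P3, ranged from 64.7 to 591. Per kilobase of exon, the mean level in bone marrow P1 was 4090 ± 1395 for Smpd3 and 6034 ± 1067 for Alpl (SD, n = 3). Between genes such levels are uncertain for the reason given with the ratios.

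The phosphate transporter Slc20a1 (chr2:129198764-129211616, plus strand) held 71.4, 126 and 76.1 in bone marrow P1, the lowest mean of the 9 groups. In bone marrow P2 it held 2893, 3204 and 1259, and in bone marrow P3 it held 803, 1013 and 1405. By their means, the 3 bone marrow groups had their Slc20a1 order reversed relative to Alpl. P1 lay below all other bone marrow libraries, while P2 and P3 overlapped. In bone marrow P2, where Slc20a1 was highest, erythroid transcripts took 44.85% to 48.06% of the library. They took 3.084% to 4.423% in bone marrow P3 and 0.5378% to 2.931% in bone marrow P1. Their part in the Slc20a1 levels was not tested. Periosteum P1 held 979, 1354 and 1347, so the low level did not extend to the other Alpl-high group. Periosteum P2 held 920, 1855 and 2966 and periosteum P3 804, 1129 and 792, and muscle ranged from 25.2 in P2 to 693 in P3.

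Slc20a2 (chr8:22476788-22569612, plus strand) varied mostly between replicates. Periosteum P1 held 1706, 212 and 2433, periosteum P3 280, 2338 and 949, and periosteum P2 1.68, 184 and 559. Bone marrow and muscle libraries ranged from 91.4 to 549. No neighbours in the order of the 9 group means were without overlap. The ratio of Slc20a1 to Slc20a2 per kilobase was 0.1556 to 0.5703 in bone marrow P1 and 7.917 to 18.13 in bone marrow P2, and in periosteum P2 replicate 1 it was 611.4, which rests on the value of 1.68 in that library.

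Phex (chrX:157162075-157415312, minus strand) was high in the same P1 groups as Phospho1. Bone marrow P1 held 2636, 3358 and 3348, and periosteum P1 held 949, 2013 and 1793, without overlap between them. All other groups stayed at or below 521. In periosteum P3 replicates 1 and 2 held 7.23 and 11.7 but replicate 3 held 327, so the mean there rests on 1 library. Muscle P1 held 204, 212 and 173, above muscle P2 (12.7, 60.2 and 70.2).

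Fam20c (chr5:138754514-138810077, plus strand), the secretory pathway kinase, was spread over more groups. It held 1843, 1691 and 1158 in bone marrow P1, 1847, 1133 and 409 in periosteum P1, and 1119, 1419 and 701 in periosteum P2, and these groups overlapped. Bone marrow P3 (112, 122 and 91.2) and bone marrow P2 (119, 2.36 and 91.8) were below every library of the other groups. Muscle libraries ranged from 263 to 831 with no order among P1, P2 and P3.

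Sost (chr11:101962458-101967015, minus strand) was listed at 0 in 24 libraries. The exceptions were bone marrow P2 replicate 2 with 2.77, muscle P1 replicate 3 with 5.67 and muscle P3 replicate 3 with 5.75 normalized counts, so that it never reached 10 and was filtered out before testing. The 5 osteocyte markers, Dmp1, Mepe, Irx5, Pdpn and Fgf23, summed to at most 0.07921% of a library, in bone marrow P1.

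To ask how P1 differed from the other subpopulations of its tissue, each gene was tested with limma on log2(normalized count + 1), and a gene was called a DEG at an adjusted p below 0.05 (Benjamini-Hochberg, 18442 genes) when its log2 fold change also exceeded 1.5 in size. In bone marrow P1 against P2, 5 of 8 tested members were higher and 1 was lower, where 34% of all genes were DEGs. The members' median log2 fold change was 4.03, against -0.61 for all genes. Smpd3 was higher by a log2 fold change of 7.42 ± 0.65 (SE, adjusted p 8.75e-09), Alpl by 6.83 ± 0.54 (1.67e-09), Fam20c by 5.52 ± 0.93 (8.85e-05), Phex by 4.37 ± 1.0 (0.00183) and Phospho1 by 3.70 ± 1.27 (0.0262). Slc20a1 fell by 4.67 ± 0.63 on the log2 scale (4.96e-06), and its mean in P2 was 26.9-fold that of P1. Enpp1 (0.37 ± 0.67, 95% CI -1.01 to 1.74) and Slc20a2 (0.65 ± 1.25, CI -1.93 to 3.24) were not DEGs. Globin-rich P2 is the reference here. After the erythroid genes were left out and totals rescaled, an alternative added after these shares were seen, Slc20a1 differed by -5.40 and Alpl by 6.09, and the Phospho1 call was lost (2.97, adjusted p 0.0722). Phospho1 was also lost with a pseudocount of 0.1 (0.144) and without any 1 of 5 of the 6 libraries (0.0551 to 0.0766), bone marrow P2 replicate 2 being the exception.

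The same 6 members were DEGs in bone marrow P1 against P3, 5 higher and 1 lower, where 6.6% of genes were DEGs and the median was 3.67 for members and 0 for all genes. Phospho1 rose by 6.30 ± 1.27 (adjusted p 0.00203), Smpd3 by 6.28 ± 0.65 (9.17e-07), Alpl by 5.10 ± 0.54 (1.16e-06), Fam20c by 3.82 ± 0.93 (0.0106) and Phex by 3.53 ± 1.0 (0.0301). Slc20a1 fell by 3.55 ± 0.63 (0.000576). Here the reference held 3.084% to 4.423% erythroid transcripts and P1 0.5378% to 2.931%. The Phex call was lost with rescaled totals (2.56, adjusted p 0.119) and without any 1 of 5 of the 6 libraries (0.0774 to 0.161), bone marrow P3 replicate 1 being the exception. The Fam20c call was lost without bone marrow P1 replicate 1 (3.69, 0.0504). With erythroid genes left out, neither Phex (2.52, 0.122) nor Fam20c (2.82, 0.0567) was called.

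In periosteum P1 against P2, 4 of 8 members were higher and none lower, with 19.1% of all genes called and medians of 2.51 for members and 0 for all genes. Phospho1 rose by 5.38 ± 1.27 (adjusted p 0.00429), Phex by 4.23 ± 1.0 (0.00443) and Alpl by 3.72 ± 0.54 (2.45e-05). Slc20a2 was higher by 3.88 ± 1.25 (0.031), but without periosteum P2 replicate 1, which held 1.68, the difference was 1.58 (0.222), and the call was also lost without periosteum P1 replicate 1 (3.46, 0.104) or replicate 3 (3.21, 0.119). Fam20c (-0.13 ± 0.93) and Smpd3 (1.29 ± 0.65, adjusted p 0.168), DEGs in P1 against P2 of bone marrow, were not DEGs here. Whether the change from P2 to P1 differed between the tissues was not tested. When the 2 periosteum groups were fitted alone, none of the 4 calls held (0.0549 to 0.482).

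In periosteum P1 against P3, 3 of 8 members were higher and none lower, with 4.18% of genes called and medians of 1.68 and 0. Phospho1 rose by 6.56 ± 1.27 (adjusted p 0.00269), Phex by 5.54 ± 1.0 (0.00129) and Smpd3 by 2.49 ± 0.65 (0.0267). Alpl differed by 1.79 ± 0.54 and missed the threshold at 0.0577. No P3 library reached a P1 library for Alpl, a separation that was not counted over all genes. With the replicate number as a block the adjusted p of Alpl was 0.0336, and with a mean of at least 50 as the filter it was 0.0432. The Smpd3 call was lost without periosteum P3 replicate 1 (1.79, 0.129) and without periosteum P1 replicate 2 (2.15, 0.102), and also with no trend (0.0551), rescaled totals (2.16, 0.0536) or erythroid genes left out (2.13, 0.0519). As in the comparison with P2, none of the 3 calls held when the groups were fitted alone (0.319 to 0.488).

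In muscle, P1 against P2 had 2 members higher and 1 lower, with 8.21% of all genes called and medians of 1.51 for members and 0.24 for all genes. Slc20a1 rose by 2.31 ± 0.63 (adjusted p 0.0193), Alpl by 2.26 ± 0.54 (0.0076), and Phospho1 fell by 5.91 ± 1.27 (0.00325). Without muscle P2 replicate 1 the differences of Alpl (1.85, 0.0559) and of Slc20a1 (1.38, 0.161) were not called, and Slc20a1 was also lost without muscle P1 replicate 1 (0.0942) or replicate 2 (0.067). With the muscle groups fitted alone Slc20a1 was not called either (0.156). Smpd3 differed by 1.98 ± 0.65 (0.0577), and was called under 6 alternatives (0.00845 to 0.0485), among them rescaled totals (2.64, 0.00892).

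Against P3, muscle P1 had 0 of 8 members called by limma, with 0.466% of all genes called and 2 members at an unadjusted p below 0.05. Those were Smpd3, which differed by 2.18 ± 0.65 (adjusted p 0.185), and Alpl, which differed by -1.52 ± 0.54 (0.365). In both genes the 3 libraries of the groups did not overlap, but the share of all genes separated in this way was not counted. Both passed when the muscle groups were fitted alone (0.0467 and 0.0129), a setting in which 766 genes were called against 86. In muscle P3, 5 endothelial markers made up 0.1961% to 0.3346% of a library, against 0.03485% to 0.09184% in muscle P1, and 4 mural markers 0.1489% to 0.2037% against 0.29% to 0.7179%. The part of these cells in the Alpl and Smpd3 values was not tested.

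**Figure D3:**
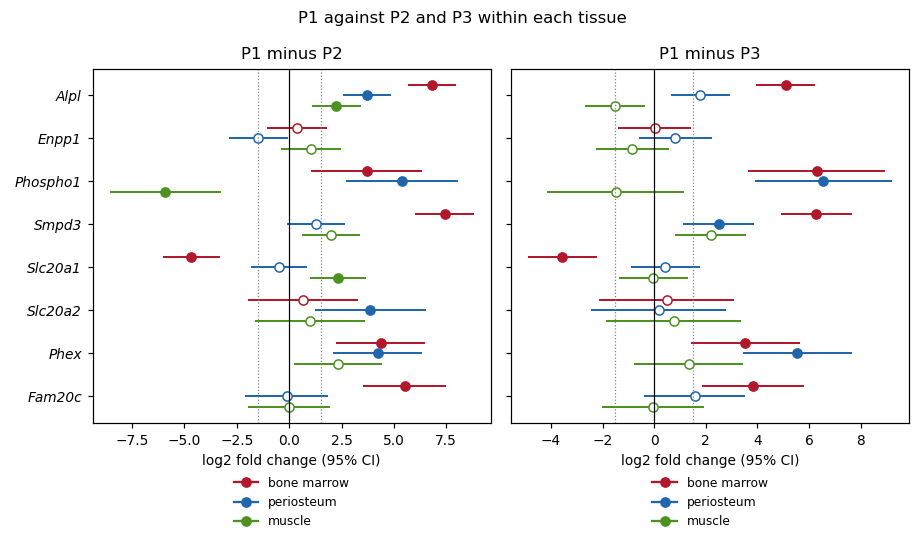
Log2 fold change of P1 against P2 and against P3 for the 8 tested members, with 95% confidence intervals from limma, 3 libraries per group and colours for tissues. Filled points are DEGs, open points are not, and dotted lines mark 1.5 in either direction; Slc20a1 is on the negative side in bone marrow alone among the DEGs, and Phospho1 in muscle P1 against P2.

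The tissues were then compared within 1 gate. In P1, periosteum exceeded muscle for 3 of 8 members, with 4.9% of genes called and medians of 1.87 for members and -0.40 for all genes. Phospho1 was higher by 7.57 ± 1.27 (adjusted p 0.000721), Alpl by 3.81 ± 0.54 (0.000136) and Smpd3 by 2.40 ± 0.65 (0.03). The Phospho1 value rests on levels near 0 in muscle P1 and ran from 6.25 to 8.38 over its alternatives. The Smpd3 call was lost without any of the 3 muscle P1 libraries (0.0573 to 0.151) or without periosteum P1 replicate 2 (0.107). It was also lost with no trend (0.0585), quantile normalization (0.0571) or the groups alone (0.053). Phex differed by 2.94 ± 1.0 and was not a DEG (0.0957), but was called with quantile normalization (3.26, 0.0446) and with the groups alone (0.0169).

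Bone marrow P1 against muscle P1 gave 4 members higher and 1 lower, with 8.34% of genes called and medians of 2.82 and -0.06. Phospho1 was higher by 7.82 ± 1.27 (0.000168), Alpl by 4.05 ± 0.54 (1.39e-05), Phex by 3.98 ± 1.0 (0.0108) and Smpd3 by 3.81 ± 0.65 (0.000293), all adjusted p from limma. Slc20a1 fell by 2.42 ± 0.63 (0.0135), a call lost without bone marrow P1 replicate 1 or 3 or without muscle P1 replicate 1 or 2 (0.0519 to 0.0741). Between bone marrow P1 and periosteum P1, 1 of 8 members was called, with 4.87% of genes called and medians of 0.24 and 0.27. That was Slc20a1, lower in bone marrow by 3.77 ± 0.63 (0.000487). Alpl differed by 0.24 (CI -0.87 to 1.35), Phospho1 by 0.25 (CI -2.37 to 2.87), Phex by 1.04 (CI -1.03 to 3.10) and Smpd3 by 1.41 (CI 0.07 to 2.76) (smallest adjusted p 0.251), and these intervals give the range of differences that the libraries allow.

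In P3, periosteum against muscle had 0 of 8 members called by limma (3.5% of genes called, 1 member at an unadjusted p below 0.05, medians 0.01 and -0.68). Bone marrow P3 was lower than muscle P3 for Alpl alone, by 2.57 ± 0.54 (adjusted p 0.00203), with 10.4% of genes called and medians of -0.17 and -0.35. It was lower than periosteum P3 for Alpl by 3.07 ± 0.54 (0.000668) and for Smpd3 by 2.38 ± 0.65 (0.0255), with 6.94% of genes called and medians of -0.77 and 0.36. The Smpd3 call was lost without bone marrow P3 replicate 1 (0.133) or replicate 2 (0.0765) and without periosteum P3 replicate 2 (0.174). Without periosteum P3 replicate 1, Smpd3 was called between periosteum and muscle (2.79, 0.0184), against 2.08 and 0.071 with all libraries. Phex moved with periosteum P3 replicate 3, the library that held 327. Without it, Phex was a DEG between bone marrow and periosteum (4.72, 0.000842) and between periosteum and muscle (-2.93, 0.0349), which it was not with all libraries (3.05, 0.0665 and -1.26, 0.534).

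**Figure D4:**
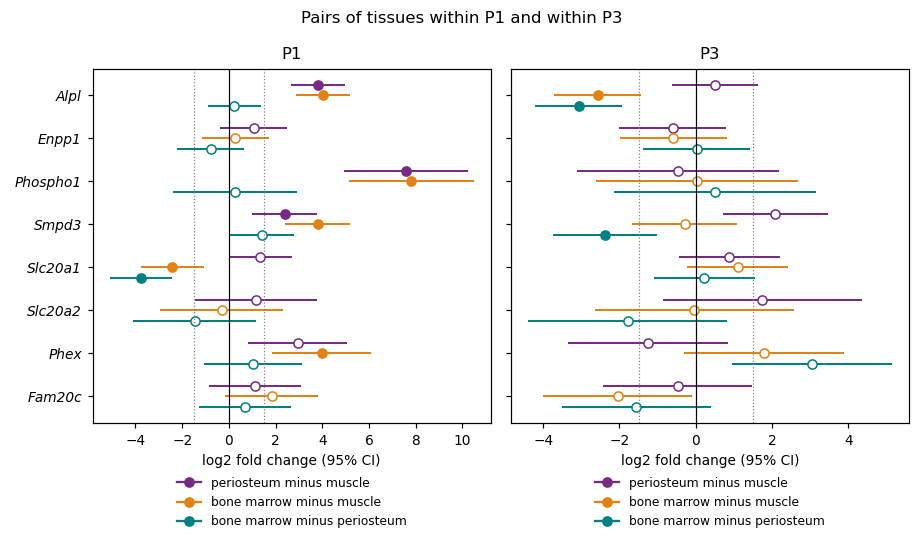
Log2 fold change between pairs of tissues within P1 and within P3 for the 8 tested members, with 95% confidence intervals from limma and 3 libraries per group. Filled points are DEGs, and Slc20a1 in P1 is the only member below 0 among the filled points of that panel, in both comparisons with bone marrow.

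Whether the change from P3 to P1 itself differed between tissues was tested as a difference of the log2 fold changes. Between bone marrow and muscle, 4 of 8 members were called, where 1.99% of genes were, with medians of 3.03 for members and 0.12 for all genes. The difference was 7.78 ± 1.79 for Phospho1 (adjusted p 0.0206), 6.62 ± 0.76 for Alpl (1.96e-05), 4.10 ± 0.92 for Smpd3 (0.0165) and -3.52 ± 0.89 for Slc20a1 (0.0363). For Alpl the difference was called under every alternative run (adjusted p at most 0.000593). The Slc20a1 call was lost without any 1 of 10 of the 12 libraries (0.0521 to 0.111), the exceptions being bone marrow P3 replicate 1 and muscle P1 replicate 3. The Phospho1 call was lost without bone marrow P3 replicate 3, bone marrow P1 replicate 2, muscle P3 replicate 1 or 2 or muscle P1 replicate 1 (0.0534 to 0.0668), and the Smpd3 call without bone marrow P1 replicate 2, muscle P3 replicate 2 or muscle P1 replicate 3 (0.0558 to 0.0633).

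Between bone marrow and periosteum, 2 of 8 members were called, where 0.537% of genes were, with medians of 0.03 and -0.04. The difference was 3.31 ± 0.76 for Alpl (adjusted p 0.0447) and -3.99 ± 0.89 for Slc20a1 (0.0372). Each call was lost without any 1 of 9 of the 12 libraries. For Alpl the exceptions were bone marrow P3 replicate 1, periosteum P3 replicate 1 and periosteum P1 replicate 2 (0.0577 to 0.162 without the others), and for Slc20a1 they were bone marrow P3 replicate 1, periosteum P3 replicate 2 and periosteum P1 replicate 1 (0.0531 to 0.111). Smpd3 differed by 3.79 ± 0.92 (0.0632), and was called without periosteum P3 replicate 1 (4.49, 0.0172) or periosteum P1 replicate 2 (4.13, 0.048). Between periosteum and muscle, limma called 0 of 8 members, with 0.249% of genes called, 3 members at an unadjusted p below 0.05 and medians of 1.64 and 0.15. Phospho1 differed by 8.04 ± 1.79 (0.0565) and Alpl by 3.31 ± 0.76 (0.0666). With the replicate block Alpl was called (0.04). Without periosteum P3 replicate 3 Alpl (3.54, 0.0471) and Phex (5.87, 0.018) were called, and without periosteum P3 replicate 2 Phospho1 was (9.34, 0.0166).

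Genes that act beside the 9 were followed in 4 lists, of which 31 of 32 genes were tested (Slc34a1 did not pass the filter). In bone marrow P1 against P2, 11 were higher and 4 lower, with a median log2 fold change of 2.07, where 34% of all genes were DEGs. Against P3, 8 were higher and 0 lower, with a median of 1.33 and 6.6% of all genes called. In periosteum P1 the counts were 5 higher and 0 lower against P2, a share of the 31 below the 19.1% of all genes, and 3 higher and 1 lower against P3, where 4.18% of all genes were called. In muscle P1 they were 4 and 0 against P2 (8.21% of all genes) and 0 and 0 against P3 (0.466%). Across the 15 comparisons 20 of the 31 genes were DEGs at least once. The share of all genes called at least once was not counted, so this count has no background beside it. Of the pyrophosphate list, Abcc6 (2 higher, 2 lower) and Ppa1 (3 higher, 1 lower) were called most often, in 4 of 15 comparisons each. The 11 genes never called included Ank, Nt5e and Ppa2 of the pyrophosphate list and Slc34a2, Xpr1, Fgf23 and Mepe of the phosphate list. The rest were Chka, Chkb and Smpd2 of the phospholipid list and Fam20b among the secretory kinases. Ank takes part in exporting the precursor of pyrophosphate, Nt5e makes adenosine outside the cell and Xpr1 exports phosphate.

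Of the matrix vesicle and phospholipid list, 5 of 9 members were higher in bone marrow P1 against P2 and 3 of 9 against P3, with none lower. Of the secretory kinase and sclerostin receptor list, 3 of 7 were higher in each, with 1 lower against P2. Of all genes, 34% were DEGs in bone marrow P1 against P2 and 6.6% against P3. Anxa5, a calcium-binding annexin of matrix vesicles, was the gene called most often, in 6 of 15 comparisons. It was higher in bone marrow P1 by 4.88 ± 0.30 against P2 (adjusted p 2.51e-11) and by 2.65 ± 0.30 against P3 (3.14e-06), and lower in bone marrow P3 than in muscle P3 by 3.37 ± 0.30 (4.25e-08). Anxa6 rose in bone marrow P1 by 4.79 ± 0.41 against P2 and by 2.32 ± 0.41 against P3, and in periosteum P1 by 1.66 ± 0.41 against P2. Anxa2 rose in bone marrow P1 against P2 by 3.01 ± 0.48, and was lower in bone marrow P1 than in periosteum P1 (-1.63 ± 0.48, adjusted p 0.047). Over the 15 comparisons Anxa6 was called higher in 3 and lower in 2, and Anxa2 higher in 1 and lower in 4. In bone marrow P3, 3 of 9 genes of this list were lower and 0 higher against muscle P3 (10.4% of all genes called). The counts were the same against periosteum P3 (6.94%).

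Of the phosphate and hormone list, Fgfr1, a receptor that binds Fgf23 together with Kl, rose in bone marrow P1 by 5.75 ± 0.56 against P2 (adjusted p 4.88e-08) and by 4.2 ± 0.56 against P3 (2.25e-05), and in muscle P1 by 1.94 ± 0.56 against P2 (0.0294). It was lower in bone marrow P3 than in muscle P3 (-1.95 ± 0.56, 0.0239) and periosteum P3 (-2.14 ± 0.56, 0.0204). Among the secretory kinases and sclerostin receptors, Sostdc1, a paralog of Sost, was also called in 5 comparisons. It was higher in muscle P1 than in muscle P2 by 4.59 ± 1.12 (0.00944) and lower in periosteum P1 than in muscle P1 by the same amount (-4.59 ± 1.12, 0.0159), and in bone marrow P1 it was lower than in P2 (-2.87 ± 1.12, 0.0489) and than in muscle P1 (-3.60 ± 1.12, 0.044).

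**Figure D5:**
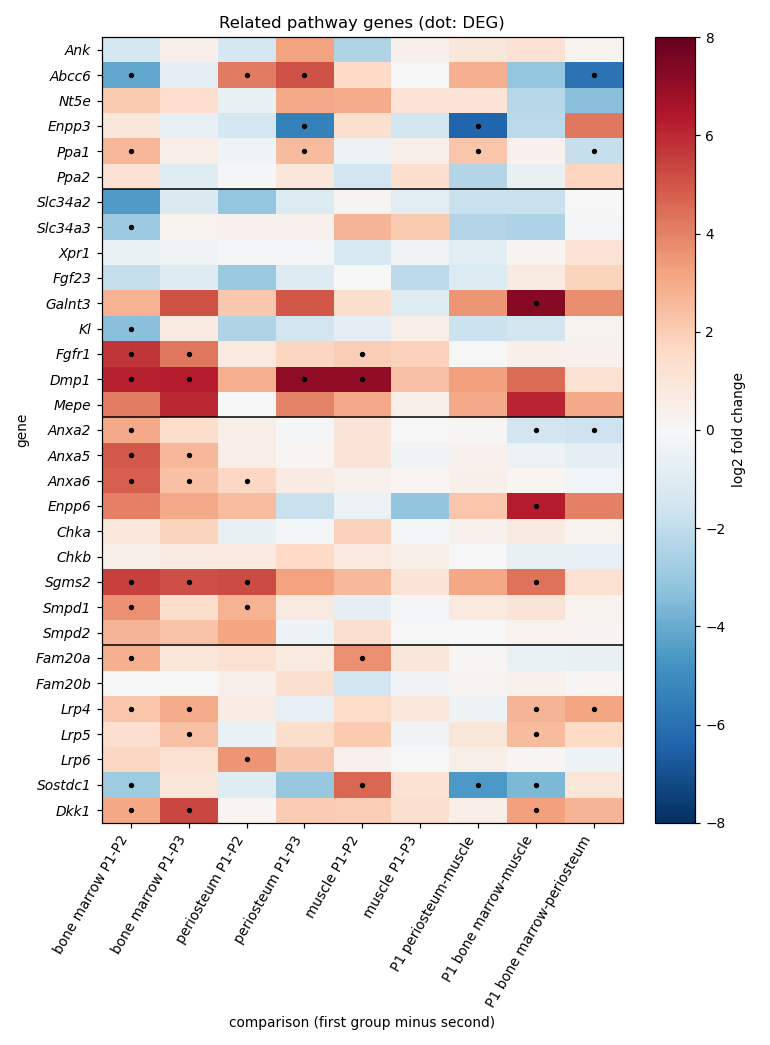
Log2 fold change of 31 related genes (rows, in 4 lists divided by lines) in 9 comparisons (columns, first group minus second), with colour for the log2 fold change, cut at 8 in either direction, and a dot for each DEG. Bone marrow P1 against P2 has the most dots, 15, and the muscle P1 against P3 column has none.

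As a description across 27 libraries, which share tissues and gates and so are not independent points, the genes outside the 9 with the pattern most like Alpl were Alg5 (Pearson r 0.907), Atp1b3 (0.904) and Cthrc1 (0.903). Cthrc1 (0.888) led for Smpd3, followed by Slc39a13 (0.882), and Prss35 (0.866) led for Phex. For Fam20c they were Slc35e4 (0.885), Fgfr1 (0.884) and Nupr1 (0.856). Slc20a1 was closest to Mcm6 (0.829), Srsf3 (0.829) and Ezr (0.814). The highest r was lower for Phospho1 (0.769, Rcor2), Enpp1 (0.771, Calml3) and Slc20a2 (0.804, Naa35). With the 9 group means as points, only Atp1b3 for Alpl, Slc39a13 for Smpd3 and Prss35 for Phex stayed among the 3 most alike. Among the members, Alpl and Smpd3 had an r of 0.799 and Fam20c and Smpd3 of 0.753, and Alpl and Slc20a1 of -0.146.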

How the data were processed

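RNA from 27 sorted libraries was amplified with SMART-Seq v4 and made into Nextera XT libraries. Per the study's methods the authors trimmed reads with Trim Galore, aligned them with STAR and handled counts with DESeq2. The genome build, annotation and counting tool are not given in the sources used here. The deposited table holds a signal, the authors' normalized counts, whose steps differ between genes, so that reads could not be recovered and depth in reads is unknown. It lists 30153 genes and 1 transgene entry (0.0047% to 0.213% of a library), which was left out. No column lacked a sample. Gene lengths and identities came from GENCODE M21 (GRCm38), where 29732 identifiers were found.

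A gene was tested if 3 or more libraries reached 10 normalized counts (18442 genes). limma 3.58.1 in R 4.3.3 (lmFit, eBayes with a trend) was run on log2(value + 1) with 9 group means, and 15 comparisons were adjusted by Benjamini-Hochberg over all genes kept. Fold changes are on that scale and understate changes of low genes. DEGs follow the study's thresholds (adjusted p below 0.05, absolute log2 fold change above 1.5). P2 was not tested between tissues. The named genes are the 9 members, the genes of the lists called most often or never, and for each member the 3 genes most like it, of which the first few are given here. The members, lists and tests were chosen with earlier results of these data known. The fit was tested on simulated data, where it missed most of the changes put in, so a gene that was not called may still differ. Replicate numbers did not pair libraries: over 36 pairs of groups, same-numbered residuals had a mean r of 0.000242, from -0.0592 to 0.0502. Alternatives were pseudocounts of 0.1 and 5, no filter, a stricter one (mean 50 or more), a block for replicate number, no trend, rescaled totals, quantile normalization, the compared groups alone, adjusted p alone and each library left out, with the erythroid-free scaling added after the data were seen. Python 3.11.15, numpy 2.4.6, pandas 2.3.3 and matplotlib 3.10.9 were used for tables and figures.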

Additional observations from a re-analysis of the deposited data

Results flagged for a closer look

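The change from P3 to P1 was called different between tissues in 6 member results. The test was limma on the difference of 2 log2 fold changes (Benjamini-Hochberg over 18442 genes, 3 libraries per group). Between bone marrow and muscle 4 of 8 members were called, with 1.99% of all genes. Between bone marrow and periosteum it was 2 of 8 (0.537% of all genes), and between periosteum and muscle 0 of 8 (0.249%). The signed change in bone marrow minus that in muscle was 6.62 for Alpl (adjusted p 1.96e-05), 7.78 for Phospho1 (0.0206), 4.10 for Smpd3 (0.0165) and -3.52 for Slc20a1 (0.0363). Between bone marrow and periosteum the difference was 3.31 for Alpl (0.0447) and -3.99 for Slc20a1 (0.0372). For Alpl the change was 5.10 in bone marrow, 1.79 in periosteum (adjusted p 0.0577) and -1.52 in muscle (0.365), the last 2 not called. All muscle P1 libraries lay below all muscle P3 libraries for Alpl, a separation that was not counted over all genes. Alpl between bone marrow and muscle was called under every alternative run, while the other 5 results lost their call under at least 1 alternative, as given in the text with each library concerned. Between bone marrow and periosteum Alpl lost its call in 14 of 23 alternatives and Slc20a1 in 10. Between bone marrow and muscle the losses were 11 of 23 for Slc20a1, 6 for Phospho1 and 4 for Smpd3.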

How the results depend on the processing

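Over all alternatives 2184 log2 fold changes of members were recomputed: 2052 stayed on the same side of the threshold, 97 lost and 35 gained the call, and none that was called changed sign, while 73 that were called in neither fit did. With the groups compared alone, the members called were 0 in periosteum P1 against P2 and 0 against P3, 2 in muscle P1 against P3, 2 in bone marrow against muscle P3, 1 in bone marrow against periosteum P3 and 1 in the periosteum and muscle difference. Without a trend they were 1 in bone marrow against periosteum P3, and 1, 2 and 0 in the differences of periosteum and muscle, bone marrow and muscle, and bone marrow and periosteum. The periosteum and muscle difference had 2 with a pseudocount of 5 or a mean of at least 50, and 1 with the replicate block, rescaled totals, quantile normalization or erythroid genes left out. The bone marrow and periosteum difference had 1 with a pseudocount of 0.1, no filter, rescaled totals or erythroid genes left out. Leaving out 1 library gave 1 to 3 in muscle P1 against P2, 0 to 1 in periosteum against muscle P3, 1 to 3 in bone marrow against periosteum P3, and 0 to 2, 1 to 4 and 0 to 2 in the 3 differences in the same order. The cause of these changes was not tested. The replicate block, whose numbers are not known to mark animals, added Alpl in periosteum P1 against P3 (adjusted p 0.0336) and in the periosteum and muscle difference (0.04), and changed no other member call.

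Counts over all genes moved by more than 1.5 times as follows. With 1 library left out, they ran from 720 to 1289 in bone marrow P1 against P3 (1218), 984 to 1256 in muscle P1 against P2 (1514), 497 to 1085 in periosteum against muscle P1 (904), 502 to 1173 in bone marrow against periosteum P1 (898), and 234 to 1218, 1149 to 1925 and 540 to 1848 in P3 for periosteum against muscle (645), bone marrow against muscle (1916) and bone marrow against periosteum (1280). Bone marrow P1 against P2 went from 6272 to 3294 with a mean of at least 50, and against P3 from 1218 to 2070 with rescaled totals, 2103 without erythroid genes and 2399 with the groups alone. The groups alone also gave 104 for 3521 and 0 for 771 in periosteum P1 against P2 and P3, 2487 for 1514 and 766 for 86 in muscle P1, 2862 for 1538 in bone marrow against muscle P1, 1275 for 645, 4575 for 1916 and 587 for 1280 in the P3 pairs, and 2507 for 367 in the bone marrow and muscle difference. Muscle P1 against P3 ran from 22 to 51 with 1 library left out, and was 40 and 229 with pseudocounts of 0.1 and 5 and 213 with quantile normalization. The 3 differences (46, 367 and 99) ran from 15 to 120, 177 to 478 and 30 to 163 with 1 library left out. The first was 74 with a pseudocount of 5, 81 with rescaled totals and 79 without erythroid genes, the second 197 without a trend, 818, 716 and 851 with rescaled totals, quantile normalization and without erythroid genes, and the third 55, 201, 155 and 193 in that order. Rescaled totals moved the median of all genes by -0.79 to 0.54 and quantile normalization by -0.34 to 0.73. Values near 0, as for Sost and for Phospho1 in muscle P1, have no known depth behind them.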
